A study of Mus musculus with 6 samples.

Results

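The genes described here are 10 circadian clock repressors and outputs in 4T1 cells, a mouse mammary carcinoma line derived from a BALB/c mouse: the bHLH repressors Bhlhe40 and Bhlhe41, the period genes Per1, Per2 and Per3, the cryptochromes Cry1 and Cry2, the REV-ERB nuclear receptors Nr1d1 and Nr1d2, and the output transcription factor Dbp. They are 10 of the 31017 genes in the count table and were chosen by their role in the clock, by a proposal made with the KO and control counts of this table in view. Their differences between the groups are therefore given as a description, without a test. All 10 had enough counts to be fitted.

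Poly(A) RNA was sequenced from 6 libraries of 4T1 cells that had received Cas9 by nucleofection and had then been grown in collagen I gels in medium with serum. In 3 libraries (control replicates 1 to 3) the cells had received control guides, and in 3 libraries (KO replicates 1 to 3, named after their label) guides for FGFR2, a cell surface kinase that binds fibroblast growth factors. The design asks what changes in gene expression when FGFR2 is targeted in a collagen matrix. The labels do not say whether the KO cells are a pool or 1 clone, whether the replicates are separate cultures, which of the 2 gel concentrations a library came from, or how long after adding the medium the cells were taken.

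In mammalian cells the clock is a feedback loop of transcription. CLOCK and BMAL1 (the product of Arntl) bind E-box sequences and switch on the Per, Cry, Nr1d, Bhlhe and Dbp genes. PER and CRY proteins then block CLOCK and BMAL1, the BHLHE40 and BHLHE41 proteins (also called DEC1 and DEC2) compete for the same E-boxes, and the REV-ERB proteins repress Arntl through RORE sequences, which ROR receptors activate. DBP activates D-box sequences together with TEF and HLF, and NFIL3 represses the same sites. In cultured cells a change to serum-rich medium can align the clocks of the cells, after which most of these transcripts rise and fall over the day. Each library is 1 harvest, so a shift of the clock's phase and a change of level at a fixed phase cannot be told apart.

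The libraries held 15531790 to 20447719 counts. Levels are given as CPM (counts scaled to a common library size) relative to TMM-scaled library totals. Fgfr2 stood at 95.9 to 106 CPM in control libraries and 81.2 to 101 CPM in KO libraries (-0.11 on the log2 scale, SE 0.0564, edgeR adjusted p = 0.113); an edit need not lower the transcript, so this does not test the label. The epithelial markers Krt8, Krt18, Krt19, Epcam and Cdh1 summed to 3930 to 4046 CPM in control libraries and 3170 to 3273 CPM in KO libraries. Of these, 4 were lower in KO libraries, and Cdh1 was higher, at a mean of 327 CPM in control and 390 CPM in KO libraries. The 6 leukocyte markers summed to at most 1.48 CPM in any library (4 at 0 counts, among them Cd3e, Adgre1 and Ly6g), the 4 endothelial markers to at most 0.588 CPM (Kdr and Tek at 0), and the 6 fibroblast markers to 36.3 to 38.2 CPM in control libraries and 39.7 to 45.4 CPM in KO libraries, mostly from Pdgfra, with Lum at 0. Col1a1, Dcn and Pdgfrb were low but higher in every KO library than in any control library, at 0.437 and 1.24, 0.0363 and 0.564, and 0.0430 and 0.442 mean CPM in the control and KO groups; their part in the results was not tested. In such bulk RNA, fewer cells that express a gene and less of its RNA per cell cannot be told apart.

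The sequences just before the start sites show where the clock's own binding motifs lie in these genes. RefSeq promoters (build GRCm38.p6, 250 bases before to 50 bases after a start) matched 8 of the 10 genes by symbol, Per1 with 2 start sites. They were searched on both strands for the E-box CACGTG, the related E-prime box CACGTT, the D-box as TTATGTAA or TTACGTAA, the cyclic AMP element TGACGTCA and the RORE core AGGTCA. The E-box CACGTG was found for Per1, Cry1 and Bhlhe41, CACGTT for Cry1, Cry2 and Nr1d1, AGGTCA for Per1 and Nr1d2, and TTATGTAA for Per3 alone, which has 2 copies. Among all 32851 RefSeq promoters of this length 7.15% hold CACGTG, 4.68% CACGTT, 16.3% AGGTCA and 0.938% TTATGTAA, and 0.0213% (7 promoters, one of them that of albumin, after whose D site DBP is named) hold at least 2 copies of the last. No TTACGTAA (0.119% of all promoters) or TGACGTCA (1.79%) was found in the windows of the 8 genes, and Dbp had none of the motifs in its window. A match describes the letters only.

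The stretches below carry those motifs, one for each of 6 genes, in capitals within the strand of the gene, 5′ to 3′. The Per3 stretch is shown for its 2 D-boxes, those of Per1, Cry1 and Bhlhe41 for the E-box, that of Nr1d1 for the E-prime box (read on the other strand) and that of Nr1d2 for the RORE core.
Per3 (chr4:151044789-151044897, minus strand): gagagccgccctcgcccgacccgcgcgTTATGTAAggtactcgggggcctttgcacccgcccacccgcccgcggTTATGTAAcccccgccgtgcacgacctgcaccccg
Per1 (chr11:69098756-69098815, plus strand): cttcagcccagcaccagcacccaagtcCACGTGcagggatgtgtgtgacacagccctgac
Cry1 (chr10:85185082-85185141, minus strand): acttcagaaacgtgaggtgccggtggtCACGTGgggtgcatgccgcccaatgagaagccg
Bhlhe41 (chr6:145865559-145865600, minus strand): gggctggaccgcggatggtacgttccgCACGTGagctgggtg
Nr1d1 (chr11:98775378-98775432, minus strand): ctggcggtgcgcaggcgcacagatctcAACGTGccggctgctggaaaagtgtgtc
Nr1d2 (chr14:18239151-18239210, minus strand): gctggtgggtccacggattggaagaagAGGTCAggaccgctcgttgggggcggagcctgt

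The 10 genes did not move as a block. Nr1d1, Per2, Per1 and Bhlhe40 were higher in KO libraries, Bhlhe41, Dbp and Per3 were lower, Cry1 and Cry2 were slightly lower, and Nr1d2 was level. Their log2 fold changes (KO over control) ran from -2.11 for Bhlhe41 to 1.04 for Nr1d1, with a median of -0.08, where that of all 12158 fitted genes was -0.01. With the edgeR quasi-likelihood test at an adjusted p below 0.05, 4 of the 10 were called higher and 4 lower (Bhlhe41, Dbp, Per3 and Cry1). Cry2 and Nr1d2 did not pass. Among all fitted genes 27.1% were called higher, 27.5% lower and 54.6% in either direction. The CPM of the groups did not overlap for 9 of the 10 and for 59.5% of all fitted genes. These counts are not a result about the clock genes, since this contrast was in view when they were chosen.

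**Figure D1:**
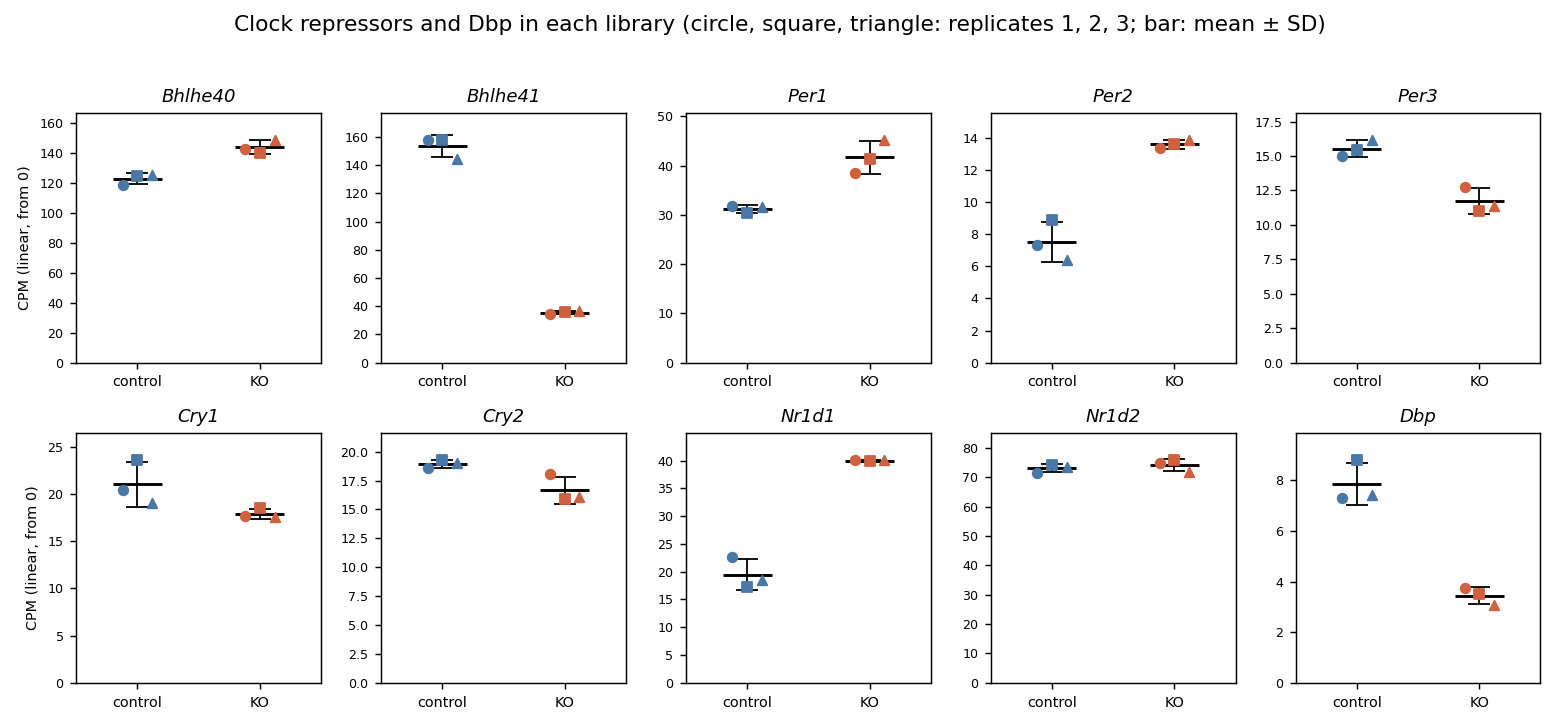
CPM (vertical axis, linear from 0) of the 10 clock genes in each control (blue) and KO (red) library; marker shapes are replicates 1 to 3, and bars are the mean ± SD of 3 libraries. The groups are apart for 9 genes and overlap for Nr1d2; the widest gap is that of Bhlhe41, at 144.5 to 158 CPM in control libraries and 34.3 to 36.3 CPM in KO libraries.

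The paralogous repressors Bhlhe40 and Bhlhe41 differed in opposite directions. Bhlhe41 (chromosome 6, 145858243 to 145865558, minus strand) had 158, 158 and 144.5 CPM in control replicates 1 to 3 and 34.3, 36.0 and 36.3 CPM in KO replicates 1 to 3, from 2902, 3203 and 2239 counts against 642, 704 and 735. Every KO library lay far below every control library, and the mean was 153 ± 7.76 CPM in control libraries and 35.5 ± 1.05 CPM in KO libraries (SD, n = 3), 4.32-fold lower (log2 fold change -2.11, SE 0.0507, 95% interval -2.21 to -2.01). Of all fitted genes, 1.59% had a larger absolute log2 fold change. Gm43909, a gene model on the opposite strand, covers 1280 exon bases of Bhlhe41 (19.0% of its exon length), and whether the counting used strand is not given in the sources used here.

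Bhlhe40 (chromosome 6, 108660629 to 108666925, plus strand), whose product DEC1 shares the DNA-binding domain of DEC2, had 118, 125 and 125 CPM in control replicates 1 to 3 and 143, 140 and 149 CPM in KO replicates 1 to 3. The KO libraries were all above the control libraries by a small margin, with means of 123 ± 3.67 and 144 ± 4.64 CPM (SD, n = 3), 1.17-fold higher (log2 fold change 0.23, SE 0.0426). On the scale of reads per kilobase of exon, scaled to the library total (RPKM), which allows levels of different genes to be set side by side, Bhlhe40 was the most abundant of the 10 genes in both groups, at 26.1 ± 0.781 RPKM in control libraries and 30.6 ± 0.986 RPKM in KO libraries. Bhlhe41 was next in control libraries, at 22.8 ± 1.15 RPKM, and sixth in KO libraries at 5.29 ± 0.156 RPKM. Bhlhe41 thus made up 46.7 ± 1.82% of the summed RPKM of the 2 genes in control libraries and 14.8 ± 0.439% in KO libraries, and the sum was 48.9 ± 0.950 and 35.9 ± 1.06 RPKM (SD, n = 3).

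**Figure D2:**
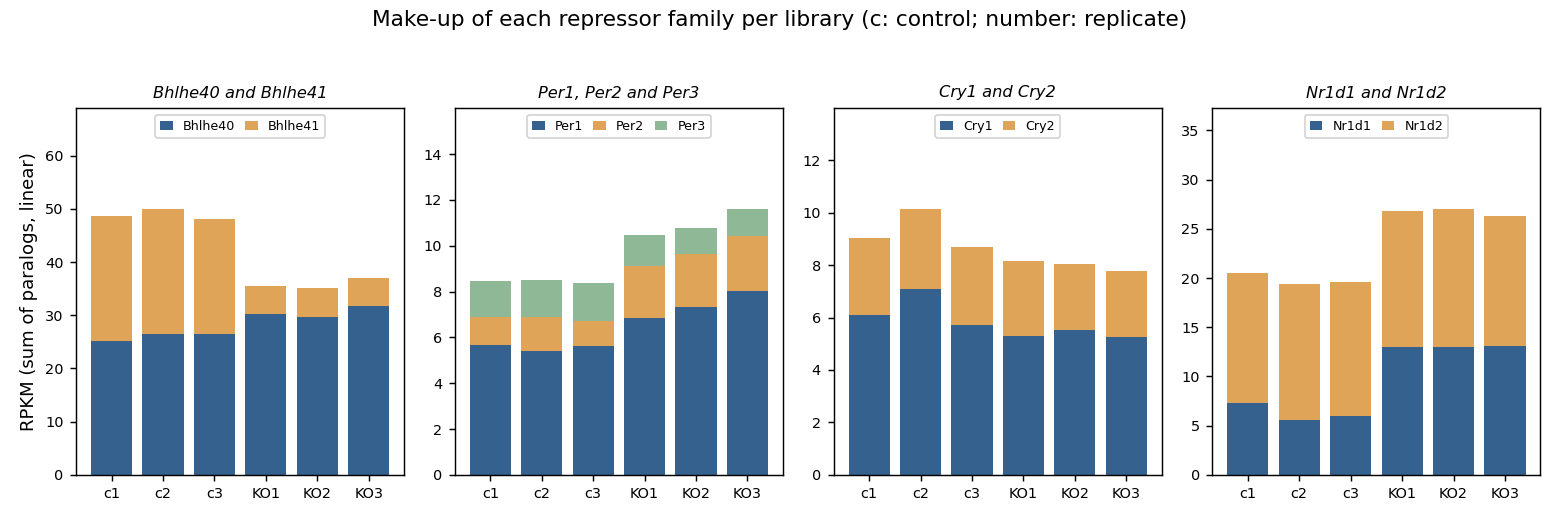
Stacked bars give the RPKM (vertical axis, linear from 0) of each paralog in the 4 repressor families, 1 bar per library (c1 to c3 control, KO1 to KO3). The mean share of Bhlhe41 in its family is 46.7% in control and 14.8% in KO libraries, that of Nr1d1 31.8% and 48.7%, and that of Cry1 67.6% and 67.1%.

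Both BHLHE40 and BHLHE41 are known as targets of the hypoxia-inducible factor HIF-1. Of 13 listed HIF target genes, all fitted, 11 fell and 2 rose (median -0.94 on the log2 scale). All 13 were thus called, beside 54.6% of all fitted genes. The 4 with the smallest adjusted p were the carbonic anhydrase Car9 (-2.32), the glycolytic enzyme Pgk1 (-1.18), the mitophagy receptor Bnip3 (-1.88) and the pyruvate dehydrogenase kinase Pdk1 (-1.73), with edgeR adjusted p from 2.47e-29 to 3.35e-26. Bhlhe41 lay on the side of the 11 and Bhlhe40 on the side of the 2 that rose, Ankrd37 (0.67, edgeR adjusted p = 6.46e-04) and Adm (0.52, edgeR adjusted p = 0.0276). The call of Adm was lost with DESeq2 (adjusted p = 0.0520) and without control replicate 2, control replicate 3, KO replicate 1 or KO replicate 3 (edgeR adjusted p from 0.0515 to 0.104). Their part in the values of the Bhlhe genes was not tested.

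The 3 period genes split as well. Per2 (chromosome 1, 91415982 to 91459324, minus strand), the member of the family most closely tied to the rhythm itself, had 7.30, 8.86 and 6.39 CPM in control replicates 1 to 3 and 13.3, 13.6 and 13.9 CPM in KO replicates 1 to 3, from 134, 180 and 99 counts against 249, 266 and 281. The control libraries were spread (coefficient of variation 16.6%) and all lay below the closely set KO libraries (2.05%). The means were 7.52 ± 1.25 and 13.6 ± 0.279 CPM (SD, n = 3), 1.79-fold higher (log2 fold change 0.84, SE 0.121, 95% interval 0.60 to 1.09).

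Per1 (chromosome 11, 69095217 to 69109960, plus strand), which also responds quickly to cyclic AMP, glucocorticoids and serum, had 31.8, 30.3 and 31.6 CPM in control replicates 1 to 3 and 38.6, 41.3 and 45.3 CPM in KO replicates 1 to 3. All KO libraries were above the control libraries, though the KO libraries were the more spread. The means were 31.2 ± 0.801 and 41.7 ± 3.38 CPM (SD, n = 3), 1.34-fold higher (log2 fold change 0.42, SE 0.0678). Per3 (chromosome 4, 151003652 to 151044665, minus strand), the paralog least needed for the rhythm, had 15.0, 15.4 and 16.2 CPM in control replicates 1 to 3 and 12.8, 11.0 and 11.4 CPM in KO replicates 1 to 3. The KO libraries were all lower, at a mean of 11.7 ± 0.932 against 15.5 ± 0.614 CPM (SD, n = 3), a 1.32-fold difference (log2 fold change -0.40, SE 0.102). The annotated span of Per3 overlaps that of Camta1 on the same strand, with 0 shared exon bases. Camta1 itself stood at 22.8 CPM in control libraries and 9.42 CPM in KO libraries.

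Summed over the family, period transcripts stood at 8.45 ± 0.0615 RPKM in control libraries and 10.9 ± 0.585 RPKM in KO libraries (SD, n = 3). Per1 supplied most of it in both groups, 65.7 ± 2.02% and 67.6 ± 1.94%. The shares of the other members changed places: Per3 was above Per2 in control libraries (19.1 ± 0.871% against 15.2 ± 2.42%), and Per2 above Per3 in KO libraries (21.2 ± 0.696% against 11.2 ± 1.35%).

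The cryptochromes, the strongest direct repressors of CLOCK and BMAL1, differed little. Cry1 (chromosome 10, 85131700 to 85185064, minus strand) had 20.4, 23.6 and 19.0 CPM in control replicates 1 to 3 and 17.7, 18.5 and 17.5 CPM in KO replicates 1 to 3. The gap between the lowest control and the highest KO library was only 19.0 against 18.5 CPM, and the log2 fold change of -0.24 (SE 0.0903) rests in part on control replicate 2, without which it was -0.14. Cry2 (chromosome 2, 92403646 to 92434043, minus strand) had 18.6, 19.3 and 19.0 CPM in control replicates 1 to 3 and 18.0, 15.9 and 16.0 CPM in KO replicates 1 to 3, a log2 fold change of -0.19 (SE 0.0901). KO replicate 1 lay close to the control libraries. Of the family's summed RPKM, Cry1 made up 67.6 ± 2.18% in control libraries and 67.1 ± 1.90% in KO libraries (SD, n = 3).

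Of the REV-ERB receptors, which bind heme and recruit the NCoR and HDAC3 corepressors, Nr1d1 was higher and Nr1d2 was not. Nr1d1 (chromosome 11, 98767932 to 98775333, minus strand) had 22.6, 17.3 and 18.5 CPM in control replicates 1 to 3 and 40.0, 39.8 and 40.1 CPM in KO replicates 1 to 3, from 414, 351 and 286 counts against 748, 780 and 813. The KO libraries were nearly equal and all far above the control libraries, with means of 19.4 ± 2.77 and 40.0 ± 0.155 CPM (SD, n = 3), 2.06-fold higher (log2 fold change 1.04, SE 0.0794, 95% interval 0.88 to 1.20). The 3′ ends of Nr1d1 and of Thra, the thyroid hormone receptor alpha gene on the opposite strand, share 263 exon bases (8.55% of the exon length of Nr1d1). Thra was lower in KO libraries, at 46.1 CPM against 56.9 CPM in control libraries.

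Nr1d2 (chromosome 14, 18204054 to 18239127, minus strand) had 71.5, 74.3 and 73.5 CPM in control replicates 1 to 3 and 74.7, 76.0 and 71.9 CPM in KO replicates 1 to 3. The groups overlapped, and the log2 fold change was 0.02 (SE 0.0490), with a 95% interval from -0.08 to 0.12. Nr1d2 made up 68.2 ± 3.47% of the summed REV-ERB RPKM in control libraries and 51.3 ± 0.796% in KO libraries, and the sum was 19.8 ± 0.637 and 26.7 ± 0.336 RPKM (SD, n = 3).

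Dbp (chromosome 7, 45705088 to 45710203, plus strand), the output factor that usually shows one of the widest daily swings, was the least abundant in CPM in KO libraries. It had 7.30, 8.81 and 7.42 CPM in control replicates 1 to 3 and 3.74, 3.52 and 3.06 CPM in KO replicates 1 to 3, from 134, 179 and 115 counts against 70, 69 and 62. The KO libraries were all below the control libraries, with means of 7.85 ± 0.839 and 3.44 ± 0.348 CPM (SD, n = 3), 2.29-fold lower (log2 fold change -1.19, SE 0.163, 95% interval -1.52 to -0.86). Dbp shares 539 exon bases (18.0% of its exon length) with Sphk2 on the opposite strand, which stood at 20.6 CPM in control libraries and 22.0 CPM in KO libraries.

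**Figure D3:**
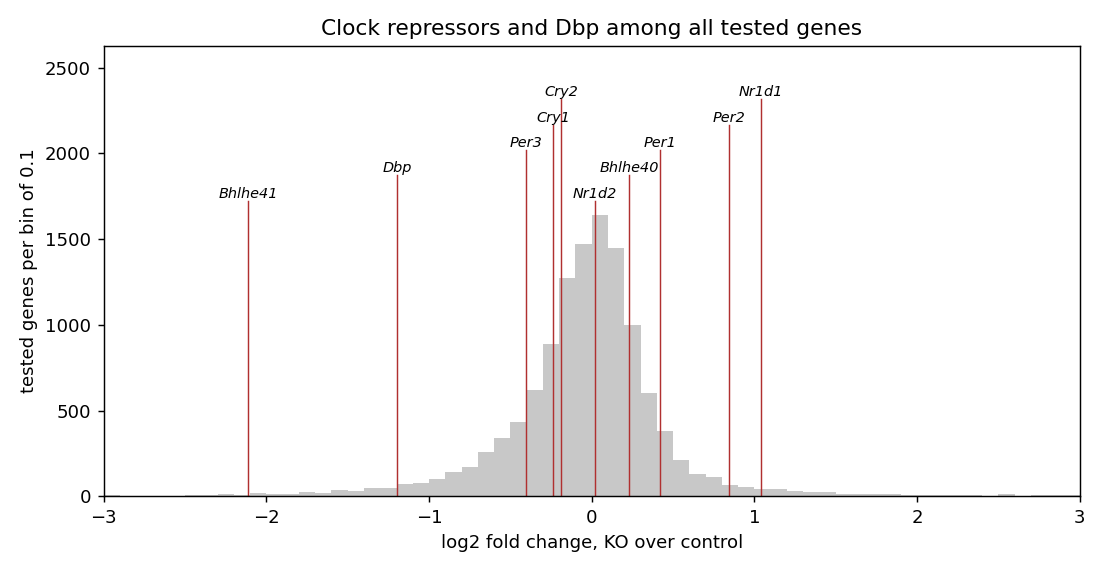
Grey bars count the fitted genes per bin of 0.1 in log2 fold change, KO over control (horizontal axis, from -3 to 3; 84 genes lie outside), and red lines mark the 10 clock genes. Bhlhe41, Dbp, Nr1d1 and Per2 lie in the tails, with 1.59%, 4.98%, 6.40% and 9.11% of genes having a larger absolute value, and the other 6 lie in the bulk.

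By RPKM the order of the 10 genes in control libraries was Bhlhe40, Bhlhe41, Nr1d2, Nr1d1, Cry1, Per1, Cry2, Dbp, Per3 and Per2. In KO libraries it was Bhlhe40, Nr1d2, Nr1d1, Per1, Cry1, Bhlhe41, Cry2, Per2, Per3 and Dbp. Some neighbours were not apart beyond their spread. In control libraries Nr1d1 (5.62 to 7.33 RPKM) overlapped both Cry1 (5.70 to 7.08 RPKM) and Per1 (5.39 to 5.65 RPKM), while the last 2 did not overlap each other. Cry2 (2.94 to 3.05 RPKM) and Dbp (2.44 to 2.94 RPKM) met at their edges. In KO libraries Cry1 and Bhlhe41 overlapped, at 5.25 to 5.54 and 5.11 to 5.40 RPKM, and so did Per3 and Dbp, at 1.15 to 1.33 and 1.02 to 1.25 RPKM.

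The activators and the other listed genes below were put through the edgeR test; these lists, too, were drawn up with results of this table known. Clock had 52.6, 51.6 and 53.6 CPM in control replicates 1 to 3 and 72.8, 67.0 and 70.8 CPM in KO replicates 1 to 3, and rose 1.34-fold (log2 fold change 0.42, SE 0.0532, edgeR adjusted p = 2.34e-08). Its partner Arntl, which encodes BMAL1 and is the classic target of REV-ERB repression, had 17.4, 20.5 and 18.2 CPM in control libraries and 18.9, 17.7 and 17.5 CPM in KO libraries. The groups overlapped, and the log2 fold change was -0.06 with a 95% interval from -0.24 to 0.13 (SE 0.0907, edgeR adjusted p = 0.614); without control replicate 2 it was 0.02.

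Arntl2, the paralog whose product BMAL2 can also pair with CLOCK, fell from 25.9 ± 0.462 to 21.04 ± 1.54 CPM (SD, n = 3, log2 fold change -0.30, SE 0.0800, edgeR adjusted p = 0.00178). Npas2, a paralog of Clock, was too low to fit, with 1 count in the 6 libraries together.

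**Figure D4:**
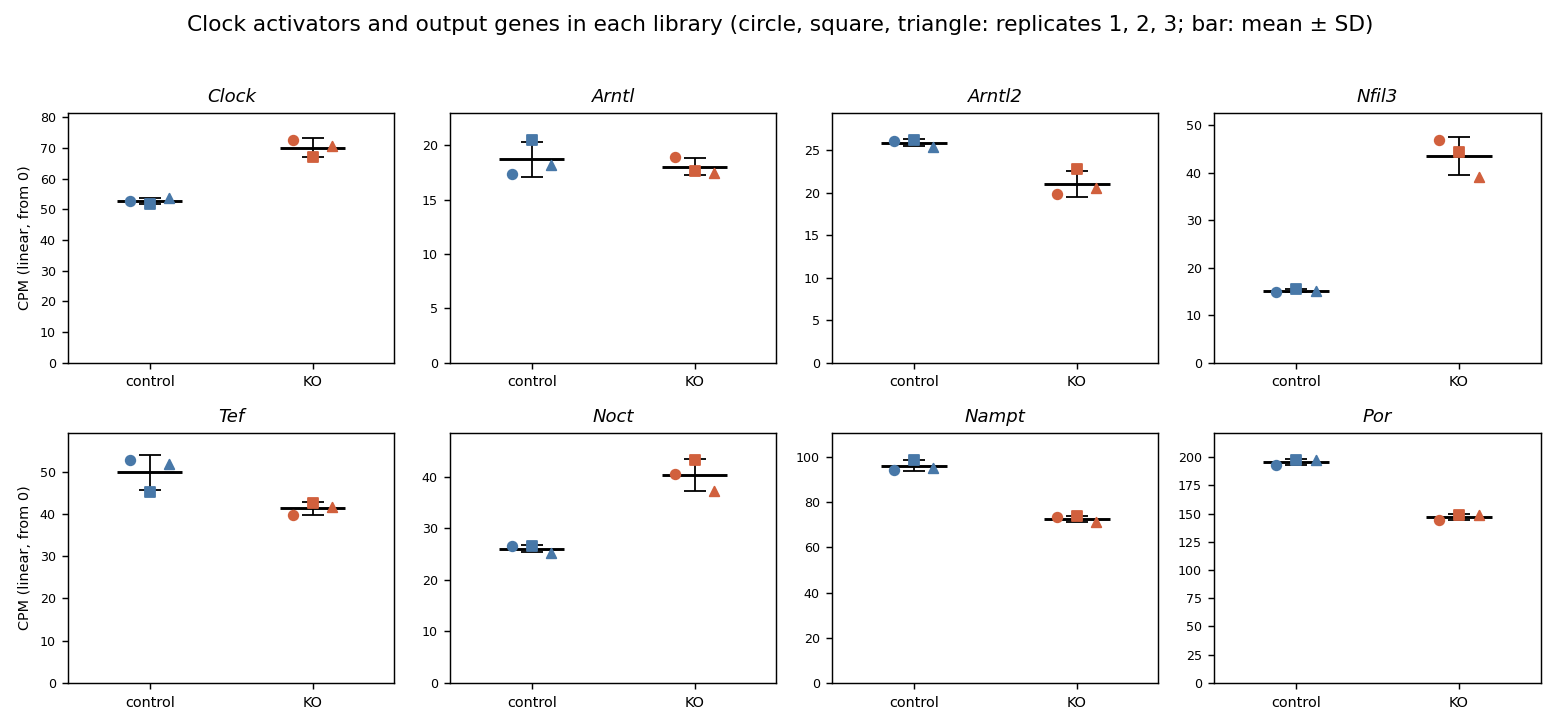
CPM (vertical axis, linear from 0) of 3 activators and 5 output genes of the clock in each control (blue) and KO (red) library; marker shapes are replicates 1 to 3 and bars the mean ± SD of 3 libraries. Nfil3 stands at 15.0 to 15.5 CPM in control libraries and 39.1 to 47.0 CPM in KO libraries, and Arntl overlaps.

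Genes that share the D-box with Dbp and other output genes moved in both directions. Of 15 listed outputs 13 were fitted, of which 5 rose, 4 fell and 4 did not pass. Their median log2 fold change was 0.10, and 69.2% were called, beside 54.6% of all fitted genes. Nfil3, the repressor at D-boxes, rose 2.86-fold from 15.2 ± 0.237 to 43.5 ± 4.03 CPM (SD, n = 3, log2 fold change 1.51, SE 0.0789, edgeR adjusted p = 9.15e-19). The activator Tef fell from 49.9 ± 4.15 to 41.4 ± 1.50 CPM (log2 fold change -0.27, SE 0.0630, edgeR adjusted p = 4.58e-04), and Hlf, the other relative of Dbp, was too low to fit at 0.215 and 0.406 CPM. Per3, the gene with 2 D-boxes in its printed promoter, had a log2 fold change of -0.40, as given above. The part of the D-box factors in its value was not tested.

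Among the remaining outputs Noct (nocturnin, a phosphatase of nicotinamide nucleotides) rose, at 26.1 ± 0.724 CPM in control and 40.4 ± 3.07 CPM in KO libraries (SD, n = 3; log2 fold change 0.63, edgeR adjusted p = 1.28e-09). The deubiquitinase Usp2 rose from 0.855 ± 0.502 to 3.18 ± 0.300 CPM (edgeR adjusted p = 3.13e-06), from 9 to 29 counts per control library; its log2 fold change was 1.84, and 2.48 without control replicate 2, which held the 29 counts. Nampt, the rate-limiting enzyme of NAD salvage, fell, at 96.2 ± 2.32 and 72.8 ± 1.33 CPM (log2 fold change -0.40, edgeR adjusted p = 2.68e-09), as did Por, the electron donor of cytochromes P450, at 196 ± 2.61 and 147 ± 2.63 CPM (log2 fold change -0.41, edgeR adjusted p = 2.30e-11). Ciart, a repressor of the loop and strictly rhythmic in many tissues, did not pass (0.14 on the log2 scale, SE 0.139, edgeR adjusted p = 0.403), and neither did the cell cycle kinase Wee1 at 0.10 (edgeR adjusted p = 0.171).

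**Figure D5:**
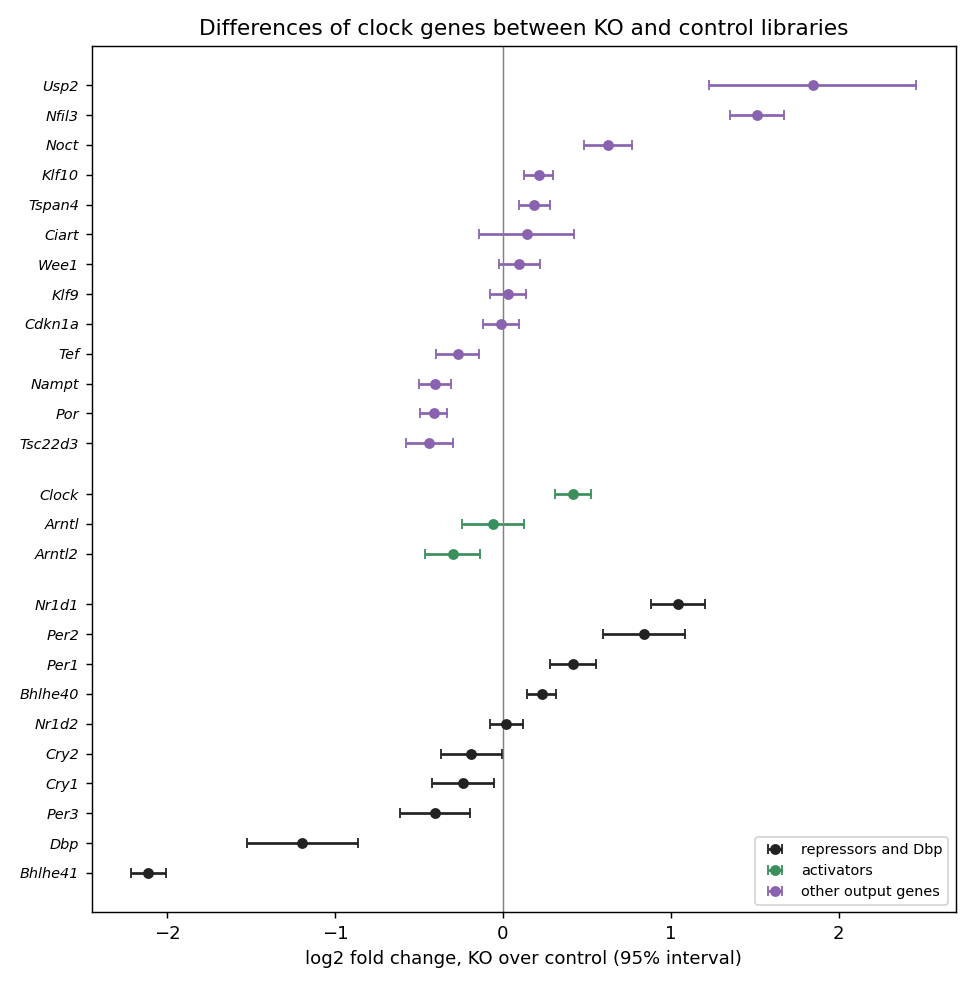
Points give the log2 fold change, KO over control (horizontal axis), and bars its 95% interval, not adjusted for the number of genes, for the 10 clock genes (black), 3 activators (green) and 13 other outputs (purple). Each class has genes on both sides of 0, from -2.11 (Bhlhe41) to 1.04 (Nr1d1) among the 10.

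Genes described as repressed by REV-ERB were listed apart: of 10, 7 were fitted, 4 rose, 2 fell and 1 (Arntl) did not pass. The share called was 85.7%, beside 54.6% of all fitted genes. The cytokine gene Il6 rose from 0.133 to 3.60 CPM, with 1, 7 and 0 counts in control replicates 1 to 3 (log2 fold change 4.55, edgeR adjusted p = 3.98e-11). Without control replicate 2 its fitted value was 6.64, which rests on 1 control count and the prior count. The protease Mmp9 fell by 1.42 on the log2 scale (edgeR adjusted p = 1.08e-27) and the chemokine Ccl2 by 0.97 (edgeR adjusted p = 2.46e-06). Clock and Nfil3, described above, were among those that rose.

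Enzymes listed for the stability of PER, CRY and other clock proteins moved in both directions. Of 22 listed kinases, phosphatases, ubiquitin ligases and deubiquitinases 21 were fitted, of which 7 rose, 5 fell and 9 did not pass. The median was 0.04 on the log2 scale, and 57.1% were called, beside 54.6% of all fitted genes. Without control replicate 1 only 2 fell. The extremes were genes of low counts, Usp2 (1.84, above) and the ligase gene Fbxl21, which fell by 1.15 from 1.11 ± 0.274 to 0.492 ± 0.224 CPM (SD, n = 3, edgeR adjusted p = 0.0191). The call of Fbxl21 was lost without control replicate 1, KO replicate 1 or KO replicate 3 (edgeR adjusted p from 0.0511 to 0.121). The casein kinases Csnk1d and Csnk1e, which phosphorylate PER, did not pass at log2 fold changes of 0.05 (SE 0.0377) and -0.08 (SE 0.0474). Btrc, a ligase that removes phosphorylated PER, fell by 0.37 on that scale (SE 0.0657, edgeR adjusted p = 1.04e-05). The kinase Gsk3b and the ligase Huwe1 rose by 0.24 and 0.26 (edgeR adjusted p = 1.49e-05 and 1.92e-06).

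Of 14 cofactors of the loop 7 rose, 2 fell and 5 did not pass, with a median of 0.10 on the log2 scale. The share called was 64.3%, beside 54.6% of all fitted genes. With upper quartile scaling, and without control replicate 2 or KO replicate 1, only 5 rose. The acetyltransferase Crebbp and the histone methyltransferase Kmt2a rose by 0.35 and 0.29, and the PER-associated RNA-binding protein gene Sfpq and the demethylase Kdm5a fell by 0.23 and 0.25, with edgeR adjusted p from 4.97e-07 to 1.19e-05. Over the activators, stability enzymes, cofactors and outputs together, with repeats counted once, 50 genes were fitted and 32 (64%) were called, 19 up and 13 down, beside 54.6% of all fitted genes.

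Regulators of acute Per transcription, not all of them inducers, were listed because Per1 answers to them. Of 12, 4 rose, 2 fell and 6 did not pass, so 50% were called, beside 54.6% of all fitted genes. Without control replicate 1 only 2 rose. The glucocorticoid receptor gene Nr3c1 and the heat shock factor Hsf1 rose by 0.27 and 0.38 on the log2 scale, Creb1 fell by 0.20, and Sik1, a kinase that restrains the CREB coactivators, fell by 0.50, with 242 CPM in control and 172 CPM in KO libraries (edgeR adjusted p from 8.33e-14 to 7.59e-04). Of 8 glucocorticoid-responsive genes 7 were fitted, and 2 rose and 3 fell, so 71.4% were called, beside 54.6% of all fitted genes. Sgk1 and Dusp1 rose by 0.92 and 0.54 on the log2 scale. Errfi1, Ddit4 and Tsc22d3 fell by 0.87, 0.60 and 0.44, and Fkbp5 did not pass at -0.03 (edgeR adjusted p = 0.608).

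The gels were digested with warm collagenase before the cells were frozen, and Per1 and Bhlhe40 are also known to respond quickly to stress. Of 12 genes that respond to such handling 11 were fitted, and 5 rose and 6 fell (median -0.14 on the log2 scale). All 11 were thus called, beside 54.6% of all fitted genes. The 4 with the smallest adjusted p were Egr1 (-1.31), Atf3 (0.84), Zfp36 (-0.59) and Ier2 (-0.51), with edgeR adjusted p from 3.52e-26 to 4.16e-14. Their part in the values of the clock genes was not tested.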

How the data were processed

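The authors deposited whole-number read counts for each gene, without normalization. The submitters' processing notes name FastQC 0.11.9, STAR 2.7.9a, featureCounts and R 4.1.1, and the builds hg38 and mm10 without a role; the library kit was a stranded poly(A) kit, per the labels' protocols. For the annotation release, the strand setting and the treatment of reads with several alignments: not given in the sources used here.

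Library totals were 15531790 to 20447719 counts. With edgeR 4.0.16 (R 4.3.3), filterByExpr (minimum count 10, total 15) kept 12158 genes, TMM set the scaling, and the group was tested alone with the quasi-likelihood F-test. Calls have a Benjamini-Hochberg adjusted p below 0.05. Fold changes use a prior count of 0.125, and SE is the log2 fold change over the square root of F. RPKM are CPM over the exon length in GENCODE M21 (mm10), which holds 98.4% of the symbols. The fit was tested on simulated data. The replicates may be technical, and p-values measure no more than their spread.

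The 10 genes and all lists were chosen with earlier results of these data known. Named genes are the 10, the activators and, of each other list, up to 4 with the smallest adjusted p. Wee1, Ciart, Tef, Csnk1d, Csnk1e, Fbxl21, Ankrd37, Adm, Ccl2, Tsc22d3 and Fkbp5 were named after their values were seen. Some genes of the lists are counted but not reported here by name. Alternatives were other scalings, filters, DESeq2 1.42.0, limma-voom (limma 3.58.1), the replicate number as a block and leaving out each library.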

Additional observations from a re-analysis of the deposited data

How the results depend on the processing

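Over 13 alternatives the number of genes called ranged from 5831 (mean of at least 5 CPM) to 6694 (no filter), and from 5922 to 6276 with 1 library left out, beside 6639. Of the 50 clock pathway genes tested, 29 to 32 were called, beside 32. Of the 453 values computed for the 35 tested genes named by rule outside the 10, 452 kept their direction and their side of the threshold, and the exception was Arntl, which was not called, turned to 0.0200 without control replicate 2 and ran from -0.109 to 0.0200 with 1 library left out; 2 values could not be had, because the filter of 5 CPM removed Usp2 and Il6. Fkbp5, also not called, turned to 0.0147 without control replicate 1 and 0.00503 without KO replicate 3, and ran from -0.0732 to 0.0147 with 1 library left out. With the replicate block 6443 genes were called, of which 6428 were among the 6639 and in the same direction. The 32 clock pathway genes and 8 of the 10 called were the same genes. The deviations of same-numbered libraries correlated at -0.0663, 0.0396 and -0.0636, beside -0.0538 to 0.113 for libraries of different number. With 3 libraries per group, these values do not show whether the numbers pair the libraries.

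The log2 fold changes of the 10 are a description. That of Cry1 ran from -0.30 to -0.14 over the alternatives and that of Cry2 from -0.25 to -0.15, and Nr1d2 lay between -0.00152 and 0.0448; apart from Nr1d2 the 10 kept their direction in all 13. The number of the 10 past the threshold was 7 to 9, beside 8. Cry1 passed in 9 of the 13 alternatives and Cry2 in 2. Without control replicate 1, 2 rather than 5 stability enzymes were lower and 2 rather than 4 Per regulators higher. Of the HIF targets, 1 rather than 2 was higher with the 5 CPM filter, with DESeq2 and without control replicate 2, control replicate 3, KO replicate 1 or KO replicate 3. Dbp, with 62 to 179 counts per library, and Per2, with 99 to 281, are the least precisely counted.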
